A study of Rattus norvegicus with 13 samples.

Results

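Default sites of meiotic recombination that were also active with 1 functional copy of Prdm9, called members here, were the windows of the merged rat table of DMC1 hotspots on chromosomes 1 to 20 with a strength of 100 or more in the Prdm9-deficient male, 25 or more in the heterozygous male and 15 or less in the wild-type male of the same strain. These were 2654 windows of 91120 autosomal windows and of 96640 in the whole table. They were chosen on those 3 strengths, which are therefore described and not tested. The strengths in the other strains and the positions played no direct part in the choice.

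PRDM9 is a zinc finger protein of early meiosis that binds a DNA motif and trimethylates histone H3 on lysine 4 (H3K4me3) there, and meiotic double-strand breaks (DSBs) then form at these sites, called hotspots. In rodents without PRDM9, DSBs still form, but at other places with open chromatin and H3K4me3, many of them promoters, which are called default sites. DMC1 coats the single-stranded DNA ends of a DSB while it is repaired, so sequencing the single-stranded DNA bound to DMC1 in testis (DMC1 SSDS) maps hotspots and gives each a strength.

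The table combines DMC1 SSDS of testes from adult rats in 5 libraries. Spontaneously hypertensive rats (SHR/OlaIpcv) gave a wild-type, a Prdm9 heterozygous (KO/wt) and a Prdm9 homozygous deletion (KO/KO) library, while the strains WKY and BN (BN/RIJHsd) gave a wild-type library each. The Prdm9 allele of WKY is that of SHR, while BN has a different allele. Each library stood alone for its condition, so genotype, strain, animal and library cannot be told apart, no test between conditions was possible, and intervals below cover the counting of windows only.

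The deletion of the KO/KO male is shown because it defines the sample in which default sites are strong; the deletion in the KO/wt male is not given in the sources used here. The 2 lines give the Prdm9 cDNA around it, 5′ to 3′, with the 29 bases that the deletion allele lacks in capitals. They make 9 codons and 2 bases, so the reading frame shifts. The gap could be placed up to 2 positions away and leave the same deletion allele. The study describes the genomic deletion as also removing part of an intron, so 29 bases is the loss from the cDNA and not the genomic length.
wild-type SHR: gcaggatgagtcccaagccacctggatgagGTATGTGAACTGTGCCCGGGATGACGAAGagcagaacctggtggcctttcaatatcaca
deletion allele: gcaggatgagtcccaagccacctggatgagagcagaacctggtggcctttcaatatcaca

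Of the autosomal windows, 12022 had a KO/KO strength of 100 or more, and 11131 of these had a wild-type SHR strength of 15 or less and are called strong default sites below. The members were 23.8% of the strong default sites (95% Wilson interval 23.1 to 24.6), and the other 8477 had a KO/wt strength below 25. As a background, a KO/wt strength of 25 or more was found in 2.43% of the 49440 autosomal windows that were equally low in wild-type SHR but below 100 in KO/KO. In the 17480 hotspots called in BN alone among the wild-type and KO/KO libraries and with a wild-type SHR strength of 15 or less, the median KO/wt strength was 3 and 0.526% reached 25. With the roles of the KO/wt and wild-type SHR libraries exchanged (wild-type SHR of 25 or more, KO/wt of 15 or less), 11 windows of KO/KO strength 100 or more were found. This count uses the same 3 strengths and 1 library per genotype, so it describes these libraries and supports nothing about the members.

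In the members, the KO/KO strength ranged from 100 to 1685 with a median of 264, and the KO/wt strength ranged from 25 to 163 with a median of 34. The wild-type SHR strength ranged from -87 to 15 with a median of 5. Negative strengths occur in the deposited table, and their origin is not given in the sources used here. The strong default sites outside the members had medians of 151 for KO/KO, 11 for KO/wt and 2 for wild-type SHR. For the scale of the SHR libraries, the called autosomal hotspots had median strengths of 72 in wild type (19898 hotspots), 70 in KO/wt (19643) and 64 in KO/KO (35375). The strengths summed over the whole table were 3486484 in wild type, 4322993 in KO/wt and 4413806 in KO/KO, so the sum was larger in both mutants.

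**Figure D1:**
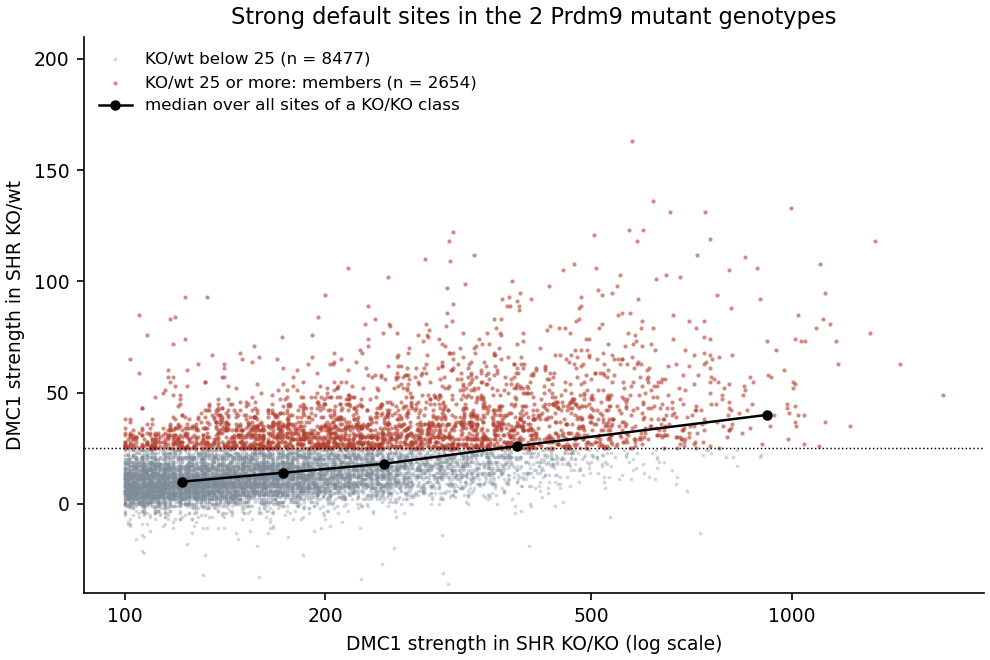
KO/wt strength (vertical axis) against KO/KO strength (horizontal axis, log scale) of the 11131 strong default sites, with the 2654 members in red, the other 8477 in grey, and a dotted line at the KO/wt threshold of 25; 35 sites with a KO/wt strength below -40 lie outside the plot. The black points, medians over all sites of 5 KO/KO classes, rise from 10 to 40.

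The cloud of strengths had no gap at the threshold. At a KO/wt strength of exactly 25 there were 190 members, with a median KO/KO strength of 214.5, and at exactly 24 there were 203 strong default sites, with a median of 201. At the KO/KO threshold, 13 members stood at exactly 100 and 7 windows that met the other thresholds stood at 99. At the wild-type threshold, 75 members stood at exactly 15 and 62 windows that met the other thresholds stood at 16. The members were thus the upper range of a continuous distribution.

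The KO/wt strength amounted to a median of 14.2% of the KO/KO strength in the members (95% interval of the median 13.7 to 14.7). The middle 50% of the members lay between 9.62% and 20.5%, and the whole range was 2.37% to 81.0%. In 331 members the share was 25% or more, and in 11 it was 50% or more. Summed over the members, KO/wt strength was 12.6% of KO/KO strength, whereas the wild-type SHR strength came to 1.61%. The choice of members sets a floor under KO/wt; over all strong default sites, with no such floor, it was 8.51% for KO/wt and 1.32% for wild-type SHR. Weak default sites, the 10050 windows with a KO/KO strength of 50 to 99 and the same limit in wild-type SHR, on which no KO/wt threshold acted, gave 10.8% for KO/wt and 2.34% for wild-type SHR. The limit on wild-type SHR strength acted in each of these sets and holds the wild-type share down. The distance between the KO/wt and wild-type shares is therefore in part set by the choice.

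Strong sites of the KO/KO male reached the KO/wt threshold more often. Members made up 9.08% of the strong default sites with a KO/KO strength of 100 to 149, 17.9% at 150 to 199, 673 of 2246 at 200 to 299, 53.9% at 300 to 499 and 85.7% of the 441 sites at 500 or more. The share of strength went the other way. Over all strong default sites the median KO/wt share fell from 8.41% in the weakest of these classes to 6.17% in the strongest, while the median KO/wt strength rose from 10 to 40. At the hotspots called in BN alone the median strength was 3 in KO/wt and 3 in KO/KO, and no such level was subtracted. Its part in this fall, and in the higher share of weak default sites, was not tested. Within the members the median share went from 25.2% to 6.90%, a range that the fixed floor of 25 largely sets.

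The 10 members with the highest KO/KO strength lay between 1122 and 1685, with KO/wt strengths of 35 to 118. The strongest, chr3:52440317-52443317 (rn5), had a KO/KO strength of 1685 and a KO/wt strength of 49, and the wild-type libraries had 12 for SHR, 15 for WKY and 10 for BN. Its KO/wt share was 2.91%, below the 5th percentile of the members at 5.63%. The third strongest, chr17:29247334-29250334, had 1334 in KO/KO and 118 in KO/wt, a share of 8.85%. In both windows every wild-type library lay at or below 18. Windows chr4:62261609-62264609 and chr4:62262560-62265560, also among these 10, overlap and are not separate sites.

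The highest KO/wt strength among the members, 163, was in chr6:21741074-21744074, where KO/KO was 577, wild-type SHR 15, WKY -14 and BN 7. Its share was 28.2%. The next were chr2:277664934-277667934 with 136 in KO/wt and 620 in KO/KO, and chr10:25698869-25701869 with 133 and 996. Of the 10 members with the highest KO/wt strength, 3 lay on chromosome 9 within 5 Mb of each other: chr9:106392472-106395472 (122 in KO/wt, 311 in KO/KO), chr9:109897633-109900633 (121 and 506) and chr9:111041036-111044036 (119 and 755). Windows chr9:106392472-106395472 and chr9:109897633-109900633 overlap another window of the table and have no KO/KO call. Window chr10:25698869-25701869 also overlaps another window.

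The 5 highest shares, 70.4% to 81.0%, came from windows with KO/KO strengths of 105 to 123, close to the lower limit. The highest, 81.0%, was in chr11:67105134-67108134, with 105 in KO/KO, 85 in KO/wt and 15 in wild-type SHR; WKY had 157 there and a called hotspot, so this window was also active in a wild-type strain with the SHR allele. The same held for chr8:64124062-64127062, with strengths of 108 for KO/KO, 76 for KO/wt, 10 for wild-type SHR and 156 for WKY. In chr7:137217459-137220459 the share was 70.9%, with 117 in KO/KO and 83 in KO/wt, and the strength was 4 for wild-type SHR, -3 for WKY and 30 for BN.

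A hotspot had been called by the authors in the KO/wt library at 1559 members, which is 58.7% (56.9 to 60.6), against 21.6% of all autosomal windows and 2.09% of the strong default sites outside the members. In KO/KO a hotspot was called at 2328 members (87.7%, against 38.8% of autosomal windows). Both calls stood at 1262 members, against 2018 of the 91120 autosomal windows. KO/KO alone was called at 1066 members, KO/wt alone at 297 and neither at 29. As these calls come from the libraries that chose the members, they are given as a description. In the KO/wt library as a whole, members were 7.94% of the 19643 called autosomal hotspots and held 2.75% of their summed strength, while in KO/KO they held 20.2%.

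Of the 2654 members, 807 overlap another window of the table and 415 overlap another member. Of the 297 members called in KO/wt and not in KO/KO, 294 overlap another window. Joining members whose centres lie within 3 kb gave 2443 sites, of which 2239 held 1 window, 197 held 2 and 7 held 3.

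The WKY and BN libraries, which played no direct part in the choice, were low at the members. WKY has the SHR allele, so the limit on wild-type SHR strength also bears on WKY. Its low level is therefore in part set by the choice. In BN the median strength of the members was 10, with the middle 50% between 5 and 15, and in WKY it was 23, with the middle 50% between 11 and 35. The strong default sites outside the members had medians of 8 in BN and 18 in WKY, so the members stood 2 units higher in BN and 5 units higher in WKY. Over all autosomal windows the medians were 11 in BN and 39 in WKY. The WKY scale is larger than the others, with a median of 210 over its called autosomal hotspots against 71 in BN. At the same hotspots called in BN alone, the median WKY strength was 22, which is close to its value at the members.

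**Figure D2:**
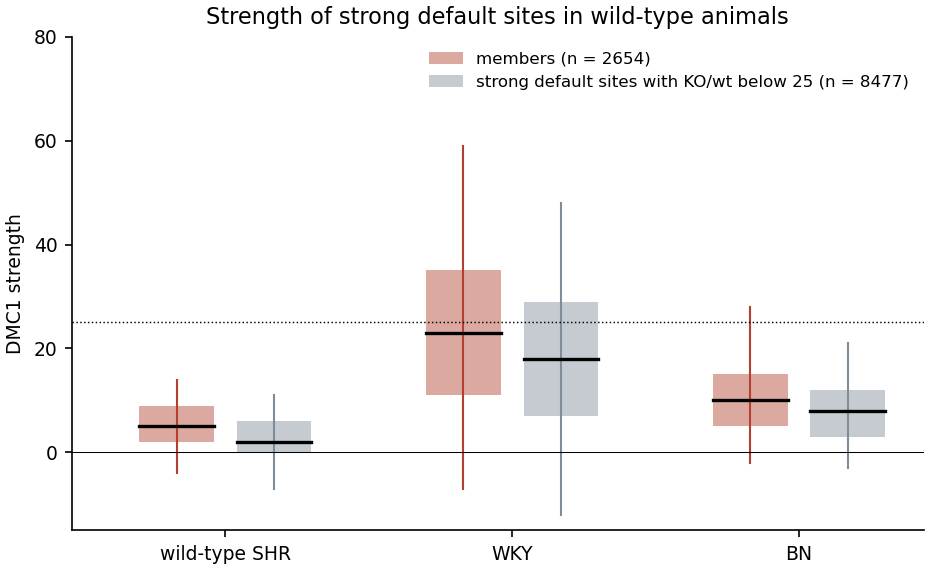
DMC1 strength in the wild-type SHR, WKY and BN libraries at the 2654 members (red) and the 8477 strong default sites with KO/wt below 25 (grey). Boxes span the middle 50% of windows, black lines are medians, vertical lines run from the 5th to the 95th percentile, and the dotted line marks a strength of 25; the member medians of 5, 23 and 10 lie above the grey medians of 2, 18 and 8.

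A strength of 25 or more was found at 46.7% of the members in WKY against 34.7% of the other strong default sites, and at 6.74% against 3.11% in BN. Over all autosomal windows the values were 64.2% in WKY and 23.6% in BN, and at the hotspots called in BN alone 44.2% reached 25 in WKY, close to the members. The difference between members and other strong default sites was there in every KO/KO class. In sites with a KO/KO strength of 100 to 149 the WKY medians were 26 in members and 18 in the others, and in those of 500 or more they were 21 and 15; the BN medians were 10 and 8, and 11 and 10. It was also there in windows that overlap no other and lie 10 kb or more from any hotspot of a wild-type library, where 1228 members had a WKY median of 24 (22 to 25) and 5023 other sites 19 (18 to 19). The BN medians of these were 10 and 8. Across the members the KO/wt strength had a Spearman rho of 0.18 with wild-type SHR, 0.11 with BN and 0.08 with WKY (n = 2654 windows that share 5 libraries).

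Called hotspots were few at the members in WKY and BN. In WKY 24 members (0.904%) were called, against 38.3% of autosomal windows and 0.189% of the other strong default sites. In BN 51 members (1.92%) were called, against 20.8% of autosomal windows and 1.00% of the other strong default sites. In wild-type SHR 10 members were called, against 21.8% of autosomal windows, but the limit of 15 on the wild-type SHR strength fixes that low count and nothing is read from it. Through the shared allele the limit also bears on the WKY count. The table merges the hotspots of all libraries, so windows chosen for KO/KO strength fall below the shares of autosomal windows in part by construction. The highest BN strength, 346, was in chr6:21913459-21916459, where KO/KO was 192 and KO/wt 30, and the next were the overlapping windows chr2:262243160-262246160 and chr2:262243860-262246860 with 329 and 300. The highest WKY strength, 838, was in chr4:240830765-240833765, with 152 in KO/KO, 46 in KO/wt and 13 in wild-type SHR. It overlaps another window, as do the 3 with the highest BN strength.

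Members were found on all 20 autosomes, most on chromosome 2 (257), chromosome 14 (209) and chromosome 1 (182). As a percent of a chromosome's strong default sites they ranged from 13.3% on chromosome 4 (106 of 797, interval 11.1 to 15.8) to 36.7% on chromosome 14 (209 of 569, 32.9 to 40.8). Chromosome 19 had 36.2% and chromosome 20 had 34.4%, while chromosome 12 had 17.1% and chromosome 3 had 19.1%. Given the KO/KO classes of the sites on each chromosome, chromosome 19 held 1.57 times, chromosome 14 held 1.5 times and chromosome 4 held 0.546 times the number that the percent of members in each class over all autosomes would give. The median KO/KO strength at strong default sites was close between the extremes, at 168 on chromosome 14 and 167 on chromosome 4.

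**Figure D3:**
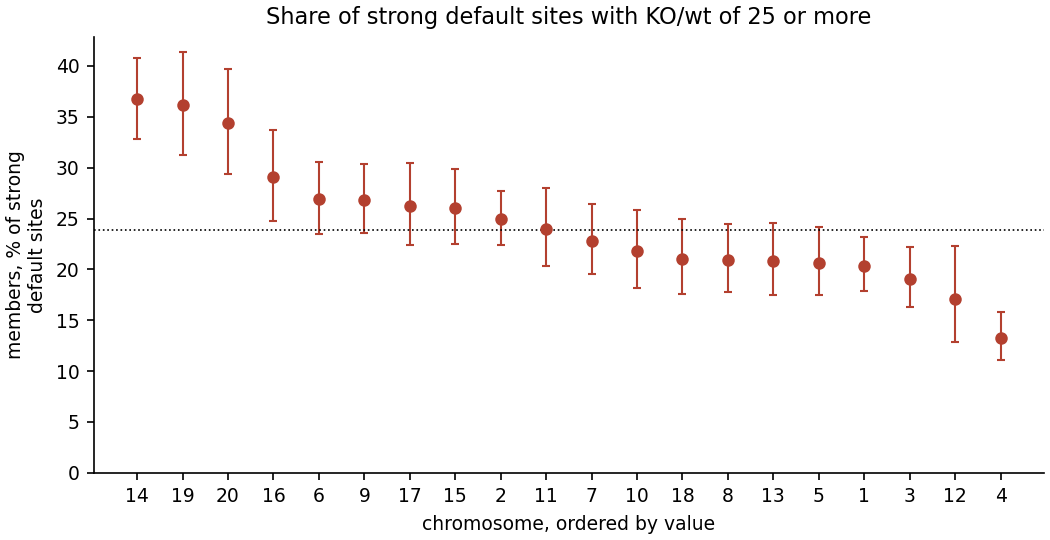
Members as a percent of the strong default sites of each autosome, in falling order, with 95% Wilson intervals and a dotted line at 23.8%, the value over all autosomes. Chromosomes 14, 19 and 20 lie highest, at 34.4% to 36.7%, and chromosome 4 lies lowest, at 13.3%.

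Weak default sites, which are other windows than the members, ordered the chromosomes in a similar way. Across the 20 chromosomes the percent of members had a Spearman rho of 0.78 with the summed KO/wt share of KO/KO strength at weak default sites, and of -0.40 with the extent of the chromosome. The points share the KO/wt and KO/KO libraries.

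Along the chromosomes, members were more frequent toward the ends. Distances were taken to the nearer of the first and last window of the table on each chromosome, which stand in for the chromosome ends. Members were 38.2% of the 605 strong default sites within 5 Mb of an end, 44.4% at 5 to 10 Mb, 31.9% at 10 to 20 Mb, 22.2% at 20 to 40 Mb, 15.1% at 40 to 60 Mb and 12.7% of the 1781 sites farther in. The intervals of the first and the last of these, 34.4 to 42.1 and 11.2 to 14.3, lay apart. The median KO/KO strength of the same sites stayed between 154 and 172, with no trend along the distance. Their wild-type SHR median was 4 within 10 Mb of an end and 2 beyond 60 Mb, and the WKY and BN medians stayed between 18 and 21 and between 7 and 10.

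**Figure D4:**
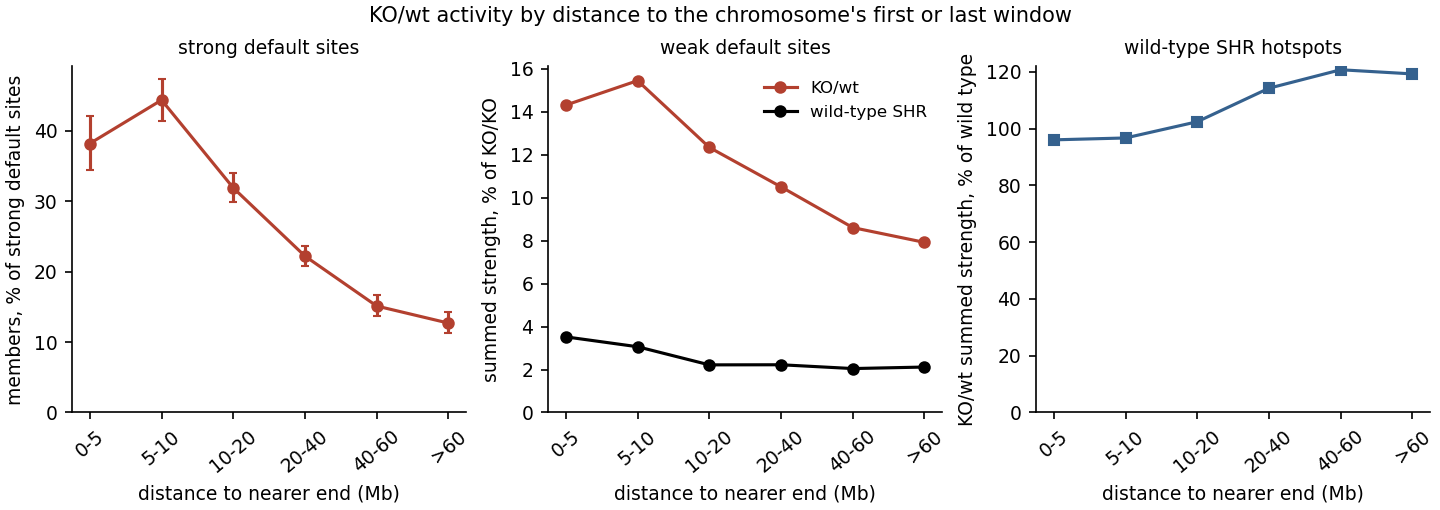
Left, members as a percent of strong default sites (95% Wilson intervals); middle, summed strength of weak default sites in KO/wt (red) and wild-type SHR (black) as a percent of KO/KO; right, summed KO/wt strength at wild-type SHR hotspots as a percent of wild type; all against the distance to the nearer end in Mb. Toward the ends the first and the red line rise, to 44.4% and 15.5%, and the right line falls, to 96.1%.

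The weak default sites went the same way. Their summed KO/wt share was 14.3% within 5 Mb of an end and 15.5% at 5 to 10 Mb, and it fell to 7.92% beyond 60 Mb, with a median KO/wt strength of 9, 10 and 6. The summed wild-type SHR share was 3.52%, 3.06% and 2.12% in the same distances, and the summed WKY share also rose toward the ends, with 33.8%, 30.9% and 24%. Median strengths there differed less, with 2, 2 and 1 in wild-type SHR and 21, 19 and 18 in WKY. The BN share was 12.8%, 14.5% and 14.3%. Hotspots of the wild-type SHR male went the opposite way. The summed KO/wt strength at these was 96.1% of the wild-type strength within 5 Mb of an end, 114% at 20 to 40 Mb and 119% beyond 60 Mb, against 113% over all 19898 of them. The median over single hotspots was lower, at 80.5%, 95% and 100% in these distances and 92.8% over all of them.

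In the outer 10 Mb at both ends together, 706 of 1676 strong default sites (42.1%) were members, and in the interior 1948 of 9455 (20.6%). The outer value was higher on 18 of 20 chromosomes, with intervals apart on 13; on chromosomes 12 and 19 the interior was higher, with overlapping intervals. On some chromosomes the 2 ends differed. In the first 10 Mb of chromosome 1, counted from its first window, 55 of 61 strong default sites (90.2%) were members, and in the last 10 Mb 3 of 52 (5.77%). Chromosome 19 had 25 of 35 in its first 10 Mb and 0 of 36 in its last, where 3 counts of 36, the limit that a count of 0 allows, come to 8.33% and the Wilson interval reaches 9.64%. Chromosome 20 went from 1 of 23 at its start to 41 of 74 at its end. Chromosome 14 was high at both ends, with 36 of 56 and 47 of 65, and chromosome 17 had 45 of 60 in its last 10 Mb.

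Stretches of 10 Mb showed how uneven the members lay. In the 219 stretches with 20 or more strong default sites, the percent of members ranged from 0 to 89.7% with a median of 17.7%. It was 50% or more in 24 stretches and 10% or less in 59, of which 8 held no member. The interval lay above the value over all autosomes in 43 stretches and below it in 62. The intervals, here and for the outer 10 Mb, treat windows as independent. Members overlap and lie near each other, so the intervals can be too narrow. Neighbouring stretches differed by a median of 9.67 percentage points over 175 pairs, and some boundaries were sharp. On chromosome 9 members made up 2.04% of the strong default sites at 90 to 100 Mb, 67.8% at 100 to 110 Mb and 69.1% at 110 to 120 Mb. On chromosome 7 the percent rose from 0 at 120 to 130 Mb to 47.8% in the next 10 Mb. Chromosome 1 fell from 89.7% in its first stretch to 69.8% and 39.4% in the next ones. Some high stretches lay away from an end, as at 20 to 30 Mb of chromosome 6, where 31 of 42 sites (73.8%) were members.

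**Figure D5:**
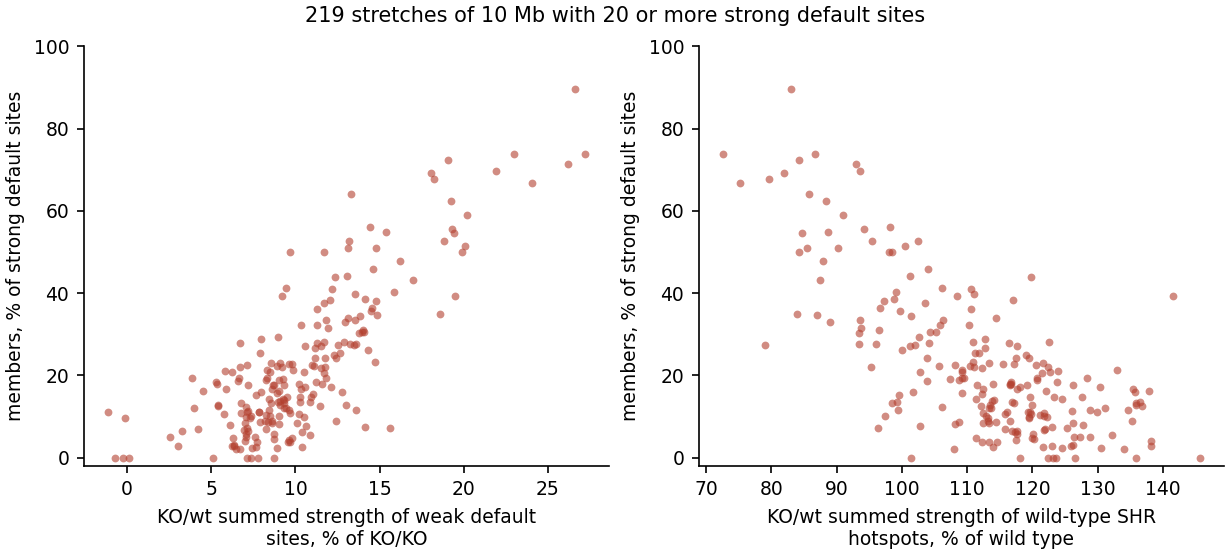
Members as a percent of strong default sites in 219 stretches of 10 Mb, against the summed KO/wt share of KO/KO strength at weak default sites (left) and the summed KO/wt strength at wild-type SHR hotspots as a percent of wild type (right). The points rise to 89.7% on the left (Spearman rho 0.72) and fall on the right (rho -0.65).

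Across these 219 stretches the percent of members had a Spearman rho of 0.72 with the KO/wt share at weak default sites and of -0.65 with the KO/wt share of wild-type strength at wild-type SHR hotspots. The rho was 0.27 with the wild-type SHR share at weak default sites, 0.22 with the WKY share, 0.06 with the BN share, 0.24 with the median KO/KO strength, 0.30 with the number of KO/KO hotspots and 0.03 with the number of wild-type SHR hotspots. All points share the KO/wt library, and neighbouring stretches are not independent. In the stretch at 0 to 10 Mb of chromosome 1 the weak default sites had a KO/wt share of 26.6% and a wild-type SHR share of 3.24%. Their WKY share was 61.6%, against 25.9% over all weak default sites. The summed KO/wt strength at wild-type SHR hotspots was 83.0% of wild type. At 190 to 200 Mb of the same chromosome none of 40 strong default sites was a member. There the WKY share was 14.0% and the summed KO/wt strength at wild-type SHR hotspots was 124% of wild type. Other stretches paired the WKY share and the percent of members differently. At 20 to 30 Mb of chromosome 14 the WKY share was 62.2% with 23.3% members, and at 80 to 90 Mb of chromosome 17 it was 20.2% with 73.9%. Whether the WKY signal had a part in the KO/wt values was not tested.

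Many members had another member nearby. Another member lay within 100 kb of 54.2% of the member windows, and within 1 Mb of 92.5%. Without windows that overlap another, the value within 100 kb was 37.8%. No equal number of other strong default sites was set beside these values. Counted by joined sites, which removes overlapping windows, 45.7% had another site within 100 kb, and the median distance to the nearest other member site was 121 kb (111 to 134). For 37.9% of the members the nearest strong default site at least 3 kb away was also a member, against 18.0% for the other strong default sites. Members also had other default sites slightly closer, with a median of 15.1 kb (14.4 to 16.1) to the nearest KO/KO hotspot at least 3 kb away against 18.0 kb (17.5 to 18.4). The distances to hotspots of the wild-type libraries differed by less than 1 kb, with medians of 37.3 and 37.0 kb to a wild-type SHR hotspot, 22.0 and 22.1 kb to a WKY hotspot, and 36.9 and 37.4 kb to a BN hotspot.

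With gaps of at most 100 kb the 2443 sites formed 1754 clusters, of which 1327 held a single site, 63 held 4 or more and 19 held 6 or more. The clusters of 4 or more contained 310 sites (12.7%). The cluster with most member windows, chr17:86396164-86576927, held 11 windows and 7 sites, and all 11 strong default windows in it were members. Its KO/KO strengths ranged from 138 to 742, its KO/wt strengths from 29 to 131, its wild-type SHR strengths from 0 to 14, its WKY strengths from -12 to 60 and its BN strengths from 0 to 38. The highest of them, chr17:86536497-86539497, had 742 in KO/KO, 131 in KO/wt and 8 in wild-type SHR, and the lowest in KO/KO, chr17:86396164-86399164, had 138, 40 and 4. The KO/wt share ran from 11.7% to 29.0% over its windows, and it was 15.7% for their summed strengths.

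A pair of clusters held 8 sites each, chr6:21615610-22011587 with a summed share of 23.2% and chr17:80334904-80557873 with 18.9%. On chromosome 1, the 7 windows of chr1:5499001-5683294 had KO/KO strengths of only 106 to 324 and KO/wt strengths of 29 to 110, which gave a summed share of 33.4%. Of the 19 clusters of 6 or more sites, 6 lay on chromosome 9, 4 on chromosome 1 and 3 on chromosome 17.

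The KO/wt signal of weak default sites fell with the distance to a member. Leaving out 44 weak default sites within 3 kb of a member, the 1432 within 3 to 50 kb of one had a summed KO/wt share of 14.6% and a median KO/wt strength of 10. The share was 13.3% at 50 to 100 kb, 11.4% at 100 to 500 kb, 9.13% at 500 to 1000 kb and 8.04% beyond, where the median KO/wt strength was 5. Their KO/KO medians stayed at 69 to 70, wild-type SHR at 1 to 2, BN at 8 and WKY at 18 to 19. For the wild-type libraries only medians are given here, and no summed shares. A hotspot was called in KO/wt at 2.79% of the nearest and 0.303% of the farthest of them. No genome or gene annotation of the rn5 build was used here, so the genes and sequences at the members are not given.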

How the data were processed

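DMC1 SSDS was done on testes of adult rats, with 1 library each for wild-type SHR, SHR KO/wt, SHR KO/KO, WKY and BN; the H3K4me3 and input libraries were not analysed here. The authors mapped reads to rn5 with a modified BWA 0.7.12, kept single-stranded DNA fragments, called hotspots, merged them into windows of 3 kb and deposited a strength per library, used here as a score of unstated scale, and a call per library. The processing notes of the submitters also name MACS2 2.1.0.20150420 and bedtools 2.23.0. No read counts were used, so the depth is unknown. Coordinates are as deposited.

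From this table windows were selected and compared in Python 3.11.15 with pandas 2.3.3, numpy 2.4.6 and scipy 1.17.1; functions were tested on simulated data. Percents have 95% Wilson intervals, and medians have order-statistic 95% intervals. Weak default sites had KO/KO strengths of 50 to 99. Members within 3 kb were joined to sites, sites within 100 kb to clusters, and 10 Mb stretches needed 20 strong default sites. Windows are not replicates. The windows named are some of the 10 members highest in KO/KO and in KO/wt and of the 5 highest in share. Others are from the 3 highest in BN and in WKY and from the largest cluster. Beside each threshold only counts are given. The other clusters and the stretches were named after their values were seen. The members and these lists were chosen with earlier results of these data known. Alternatives used other thresholds, subsets of windows and scales.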

Additional observations from a re-analysis of the deposited data

Results flagged for a closer look

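On chromosome X, which the choice of members left out, 291 of 695 windows with a KO/KO strength of 100 or more and a wild-type SHR strength of 15 or less had a KO/wt strength of 25 or more (41.9%, interval 38.3 to 45.6). The median KO/KO strength of these windows was 613 and the median KO/wt share 7.34%. Over the 695 windows the median KO/KO strength was 353, against 166 at strong default sites of the autosomes. Among autosomal sites with a KO/KO strength of 300 to 499, 53.9% were members, and the KO/wt share there fell with KO/KO strength. The values on X were not set against autosomal sites of equal strength. Summed over the 695 windows the KO/wt share was 4.06%, against 8.51% at strong default sites of the autosomes. In one of its comparisons of X with autosomes the study states that it scaled X strength for the single copy in males; whether the deposited values carry that factor is not stated, so levels on X and autosomes may be on different scales.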

How the results depend on the processing

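The number of members was 5536 with a KO/wt threshold of 15, 480 with 50 and 1399 with a wild-type SHR threshold of 5. The percent of strong default sites that were members was 49.7% with a KO/wt threshold of 15, 4.31% with 50, 44.1% with a KO/KO threshold of 200, 18.2% and 25.8% with wild-type SHR thresholds of 5 and 25, 20.1% in windows that overlap no other, 21.8% in windows called in KO/KO and 24.9% with X. The exchanged thresholds gave 6 windows where overlaps were left out. The median KO/wt share was 11.8% and 17.3% with KO/wt thresholds of 15 and 50, 11.2% with a KO/KO threshold of 200, 13.3% with X, 12.0% after subtracting wild-type SHR, 12.6% from summed strengths and 13% with each library scaled to its median hotspot. The median BN strength was 9 and 12 with KO/wt thresholds of 15 and 50 and 9 with X, and the median WKY strength was 21 and 26 with those thresholds. The percent called in KO/wt was 30.9% and 86.0% with those thresholds, 64.5% with a KO/KO threshold of 200, 54.8% with a wild-type SHR threshold of 5 and 54.2% in windows called in KO/KO. The percent with another member within 100 kb was 61.1% and 31.7% with KO/wt thresholds of 15 and 50, 44.6% with a KO/KO threshold of 200, 39.5% and 58.0% with wild-type SHR thresholds of 5 and 25, 37.8% without overlapping windows, 44.5% in windows called in KO/KO and 45.7% for joined sites; it was 39.1% within 50 kb and 92.5% within 1 Mb. Fewer or more members by construction change how near they lie. The other 26 of 65 alternatives stayed within the interval of the value, or within 1.5 times for counts.

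The joined sites and the windows far from wild-type hotspots were chosen after seeing the data. In alternatives also chosen then, the outer 10 Mb held a larger percent of members than the interior under each of 7 planned changes of threshold or windows, by 1.48 to 3.45 times, and by 1.97 times without chromosome 1. No paired analysis was possible because each condition had 1 library and no result came from a test. The precision is limited by that single library per condition: strengths near 25 have no stated error, and a regional difference in KO/wt cannot be told apart from one of that library or animal.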
